A study of Triticum aestivum with 14 samples.

Results

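The 2 wheat genes described as NAC domain transcription factors, TraesCS5A02G143200 on chromosome 5A and TraesCS5B02G142100 on chromosome 5B, were followed through all 14 libraries of a bulk RNA-seq study of wheat (Triticum aestivum) florets. These 2 genes of 100591 in the deposited table were chosen because their levels were high in F5 and near zero in F1, Lemma, Anther and Ovary, so the same levels are given here as a description, with no test. Every library came from central spikelets of plants given no treatment, taken 21 days past the stage at which the terminal spikelet forms, in material labelled N50, a term the labels do not explain. There were 3 libraries each of F1, F5, Anther and Ovary and 2 of Lemma. The study set florets that stay fertile beside florets that abort, and added organs of a fertile floret. Wheat florets are by custom numbered from the base of the spikelet, but the labels do not spell out F1 and F5 and do not say which was fertile. Nothing in the labels says that replicates came from separate plants. Each p-value below sets a difference against an estimated spread between libraries, and that spread may be technical in part. For the organ comparisons it was estimated over all 5 groups.

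NAC proteins are transcription factors found in plants, named after the founding genes NAM, ATAF and CUC, with a conserved DNA-binding domain near the start of the protein and a variable region that regulates transcription. Members of the family take part in the setting of organ boundaries, in the making of secondary cell walls, in responses to drought and salt, and in senescence. In wheat the family member NAM-B1 speeds leaf senescence and the movement of nutrients to the grain. Bread wheat carries A, B and D genomes, so a gene usually has a copy on the matching chromosome of each.

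Summed counts lay between 75016595 and 79847721 in the F1 libraries, from 100415586 to 105526441 in F5, from 98099271 to 100117298 in Lemma, from 76441070 to 96159764 in Anther and from 80349973 to 103924952 in Ovary. At this depth 3 counts of the 5B gene, taken as the detection floor, were worth between 0.0161 and 0.0227 FPKM (fragments scaled by gene length and library size, as deposited). Chlorophyll a-b binding protein and Rubisco small subunit genes (115 genes), which mark green tissue, summed to between 52508 and 53459 FPKM in Lemma but to at most 994 FPKM in Anther and 591 FPKM in Ovary. The anther list (69 genes annotated with pollen, tapetum, exine or strictosidine synthase) summed to between 229 and 236 FPKM in Anther and to no more than 201 FPKM elsewhere. The next highest group was Ovary, at 166 to 201 FPKM, and 30 of the 69 genes were at 0 in Anther. The list thus set Anther apart from Ovary only narrowly and is a weak check of the Anther label. No named ovary marker was found, so the Ovary label was not checked.

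Both genes lie on the minus strand. In the positions of the deposited table, whose genome build is not given, TraesCS5A02G143200 spans 317246617 to 317248367 on 5A (1751 bp) and TraesCS5B02G142100 spans 267777723 to 267779485 on 5B (1763 bp). Each carries the ontology terms DNA binding, nucleus and regulation of transcription, and no pathway. No other gene of the table overlaps either one.

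The 5B gene was abundant in each F5 library and at or below 0.270 FPKM in each of the others. F1 replicate 3 (38 counts) and Ovary replicate 1 (23 counts) lay well above the floor of 3 counts. Its level was 46.3 FPKM in F5 replicate 1, 46.1 in replicate 2 and 17.7 in replicate 3 (8336, 8265 and 3117 counts). In F1 it was 0.0444, 0.0490 and 0.270 FPKM in replicates 1 to 3, from 6, 7 and 38 counts. The organs were as low, at 0.0578 and 0.0977 FPKM in the Lemma libraries, 0.0520, 0 and 0 in the Anther libraries, and 0.128, 0.0221 and 0.0541 in the Ovary libraries. No library outside F5 overlapped with F5: the lowest F5 level was 65.3 times the highest level elsewhere, which was in F1 replicate 3. In order, the group means were 36.7 ± 16.5 FPKM in F5, 0.121 ± 0.129 in F1 (SD, n = 3 each), 0.0778 ± 0.0282 in Lemma (SD, n = 2), 0.0680 ± 0.0543 in Ovary and 0.0173 ± 0.0300 in Anther (SD, n = 3 each). The neighbours in this order below F5 differed by less than the larger of their SDs, and the ranges of F1, Lemma and Ovary overlapped.

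The 5A gene showed the same contrast at a somewhat lower level. It stood at 34.4, 36.6 and 15.9 FPKM in F5 replicates 1 to 3 (6148, 6509 and 2791 counts). In F1 it stood at 0.114, 0.195 and 0.226 FPKM (16, 28 and 32 counts). Lemma gave 0.0221 and 0.0729 FPKM, Anther 0.0790, 0 and 0.0343, and Ovary 0.117, 0.0222 and 0.0422. The lowest F5 library was 70.4 times the highest other one, again F1 replicate 3. Group means fell in the order F5 (29.0 ± 11.4 FPKM), F1 (0.178 ± 0.0579), Ovary (0.0605 ± 0.0501), Lemma (0.0475 ± 0.0360) and Anther (0.0377 ± 0.0396). F1 overlapped with Ovary by a single pair of libraries (0.114 in F1 against 0.117 in Ovary) and lay above every Lemma and Anther library, while the 3 organs overlapped with each other.

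**Figure D1:**
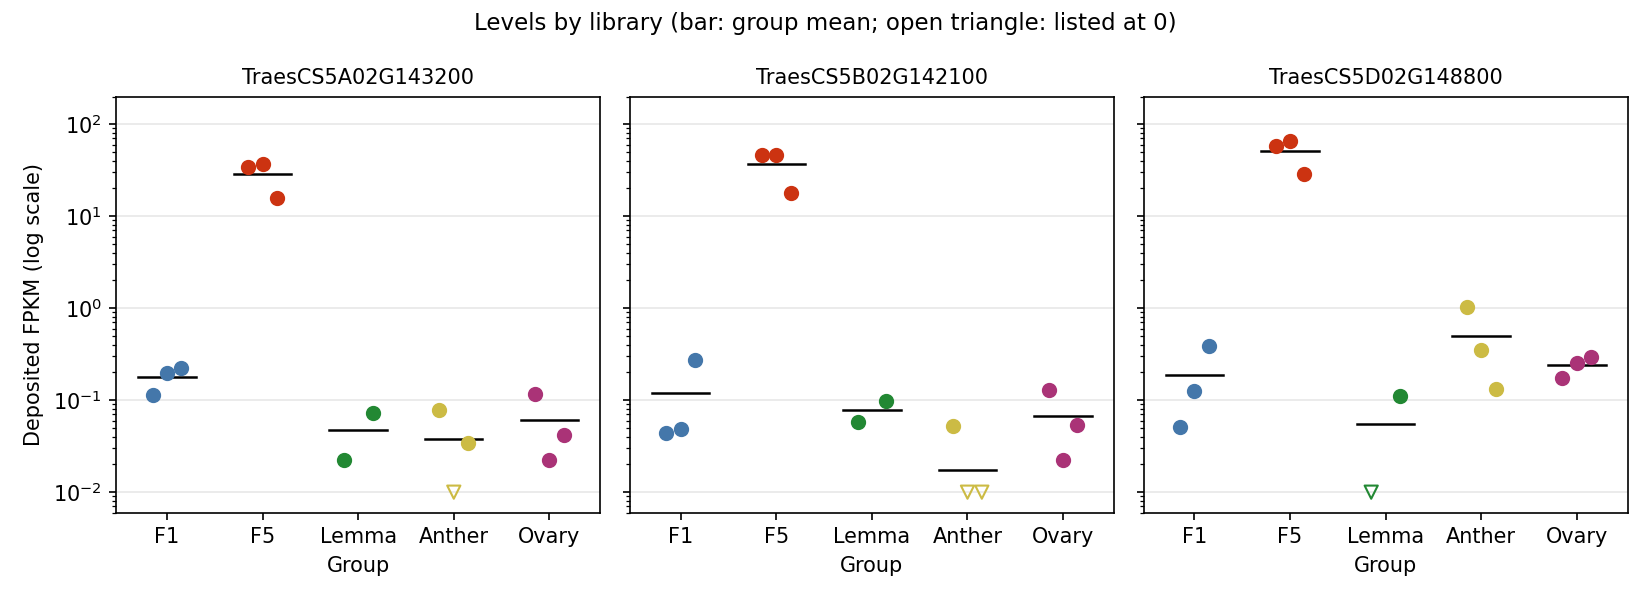
Deposited FPKM on a log scale in each of the 14 libraries, by group, for the 5A and 5B NAC genes and for the gene at the matching place on 5D; filled points are libraries, bars are group means and open triangles are libraries listed at 0. The F5 points of the 2 NAC genes lie between 15.9 and 46.3 FPKM, and their points in the other groups lie at or below 0.270 FPKM; the 5D gene lies between 28.7 and 65.7 FPKM in F5 and at or below 1.02 FPKM elsewhere.

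Mean levels in F5 were 303 times those in F1 for the 5B gene and 162 times for the 5A gene. Since the genes were chosen on this contrast, nothing is read from the absence of overlap. By deposited FPKM, without the scaling between libraries used in the fits, F5 and F1 did not overlap for 55.0% of the 70221 genes tested. F5 libraries lay above all F1 libraries for 16.9% and below all of them for 38.2%. They lay above all Lemma libraries for 38.2%, above all Anther libraries for 37.0% and above all Ovary libraries for 27.2% of the 79955 genes tested. The fitted log2 fold change of F5 over F1 was 8.49 (SE 0.78) for the 5B gene and 7.56 (SE 0.44) for the 5A gene on edgeR's scale, without a test. With so few counts in F1 its size depends on the scale, and on log2(FPKM + 1) it was 4.96 and 4.58. Without F1 replicate 3 the 5B value was 9.80. In F5 the 5B gene ranked 2382 and the 5A gene 3274 of 100591 by mean level. In bulk RNA, more cells that make a transcript and more transcript per cell cannot be told apart. Floret parts such as palea and lodicules were not analysed here.

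Within F5, replicate 3 was the low library for both genes. Its level was 0.382 times the mean of replicates 1 and 2 for the 5B gene and 0.449 times for the 5A gene. Over the 21536 genes with at least 5 FPKM in F5 the median of that ratio was 0.989, with 5% of genes below 0.606. Only 0.840% of those genes had a ratio under that of the 5B gene and 1.47% a ratio under that of the 5A gene. Without replicate 3 the F5 means were 46.2 FPKM for the 5B gene and 35.5 FPKM for the 5A gene.

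The 2 genes had similar levels in F5, with the 5B gene somewhat ahead. In F5 the 5B gene held 57.6% of the counts of both genes in replicate 1 (exact 95% interval 56.7 to 58.4), 55.9% in replicate 2 (55.1 to 56.7) and 52.8% in replicate 3 (51.5 to 54.0), a mean of 55.4% ± 2.44 (SD, n = 3). Per length, from FPKM, its mean share was 55.2% ± 2.44. It was above 50% in 3 of 3 F5 libraries. In F1 replicates 1 to 3 it was 27.3% (6 of 22 counts, interval 10.7 to 50.2), 7 of 35 counts (8.44 to 36.9%) and 54.3% (38 of 70 counts, 41.9 to 66.3), so that in F1 replicates 1 and 2 most of the few counts were assigned to the 5A gene. These intervals cover counting error only. How the authors' counting treated reads that match more than 1 copy is not given in the sources used here, so the split between copies is uncertain.

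The surroundings of the 2 genes matched gene by gene. Over 8 consecutive places, each 5A gene shared at least 1 ontology term with the 5B gene at the same place, in the same order and on matching strands. On 5D the same 8 places were found in inverted order, each again sharing at least 1 term with its 5A counterpart and lying on the matching relative strand. This alignment was made after the values were seen and rests on annotation and order alone, as no sequence was compared. The 5D gene at the place of the 2 NAC genes was TraesCS5D02G148800 (5D, 238066017 to 238067741, plus strand, 1725 bp). It has no name or description in the table but carries the same 3 ontology terms.

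TraesCS5D02G148800 was high in F5 as well. Its level was 58.1, 65.7 and 28.7 FPKM in F5 replicates 1 to 3 and 0.0507, 0.126 and 0.388 FPKM in F1. It was low in the organs too, at 0 and 0.111 FPKM in Lemma and 0.175, 0.256 and 0.298 FPKM in Ovary, but reached 1.02 FPKM in Anther replicate 1 beside 0.350 and 0.131 FPKM in the other Anther libraries. Replicate 3 was again the low F5 library, at 0.463 times the mean of the other F5 libraries. Of the summed FPKM of the 3 genes in F5, the 5D gene held 44.1% ± 2.10, the 5B gene 30.9% ± 2.50 and the 5A gene 25.0% ± 0.504 (SD, n = 3), and this order was the same in each F5 library.

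The gene directly beside each NAC gene carries the same ontology text but did not share its pattern. It lies on the same strand at a distance of 6154 bases on 5A, 16552 bases on 5B and 5206 bases on 5D. TraesCS5A02G143100 had 0.324 ± 0.0765 FPKM in F1 and 0.438 ± 0.165 in F5 (SD, n = 3; log2 fold change 0.68, SE 0.44, edgeR adjusted p = 0.266). TraesCS5B02G141900 had 0.536 ± 0.123 and 0.532 ± 0.123 FPKM (log2 fold change 0.24, SE 0.37, edgeR adjusted p = 0.641), and TraesCS5D02G148900 had 1.22 ± 0.460 and 1.16 ± 0.430 FPKM (log2 fold change 0.17, SE 0.42, edgeR adjusted p = 0.778). All 3 were thus low in both florets and none passed the test.

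Of the 20 genes within 5 places of the 2 NAC genes, 18 were tested, 3 were called higher in F5 and 5 lower, where 24.1% of all genes tested were called, 10.4% higher and 13.7% lower (edgeR's quasi-likelihood test, where a call needs a p under 0.05 after Benjamini-Hochberg adjustment and a change of 2-fold or more). On the far side, the next gene, annotated with DNA-binding transcription factor activity, rose on both chromosomes but stayed scarce. TraesCS5A02G143300 measured 0.472 ± 0.164 FPKM in F1 against 1.93 ± 0.424 in F5 (log2 fold change 2.28, SE 0.38, edgeR adjusted p = 0.00575) and TraesCS5B02G142200 measured 0.601 ± 0.169 and 1.85 ± 0.432 FPKM (log2 fold change 1.89, SE 0.34, edgeR adjusted p = 0.00720). On log2(FPKM + 1) in limma both stayed under 2-fold, at 0.99 and 0.83, a scale that shrinks changes at such low levels. On log2(FPKM + 0.1) they were 1.84 and 1.48. Their 5D counterpart TraesCS5D02G148700 rose too (log2 fold change 1.73, SE 0.40, edgeR adjusted p = 0.0171).

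The gene after that, annotated with RNA and metal ion binding, fell on all 3 chromosomes. TraesCS5A02G143400 went from 8.00 ± 1.23 to 1.14 ± 0.216 FPKM (edgeR adjusted p = 0.000498), TraesCS5B02G142300 from 6.48 ± 0.535 to 1.06 ± 0.106 FPKM (edgeR adjusted p = 0.000352) and TraesCS5D02G148600 from 6.34 ± 0.273 to 0.640 ± 0.104 FPKM (edgeR adjusted p = 0.000306). The remaining called neighbours were TraesCS5A02G142700, with no annotation, which rose from 3.50 ± 1.38 to 16.0 ± 1.82 FPKM, and 3 that fell. Those were the hexosyltransferase gene TraesCS5A02G143800, whose ontology places it in pectin synthesis (2.82 ± 0.804 to 0.417 ± 0.0701 FPKM), and the protein-binding genes TraesCS5B02G142500 and TraesCS5A02G143500 (log2 fold changes of -3.49 and -2.41). The TraesCS5A02G143500 call was lost when any 1 of the F1 libraries, F5 replicate 1 or F5 replicate 2 was left out. The edgeR adjusted p then lay between 0.0503 and 0.0783. On log2(FPKM + 1) in limma the change of TraesCS5A02G143500 was -0.94. TraesCS5B02G142500, at 0.290 FPKM in F1, could not reach 2-fold on that scale however far it fell. On log2(FPKM + 0.1) the change was -2.32 for TraesCS5A02G143500 and -1.68 for TraesCS5B02G142500. The membrane protein genes TraesCS5A02G143000 and TraesCS5B02G141800, at 43.1 and 46.2 FPKM in F1 and 36.7 and 39.3 FPKM in F5, had log2 fold changes of 0.03 each.

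**Figure D2:**
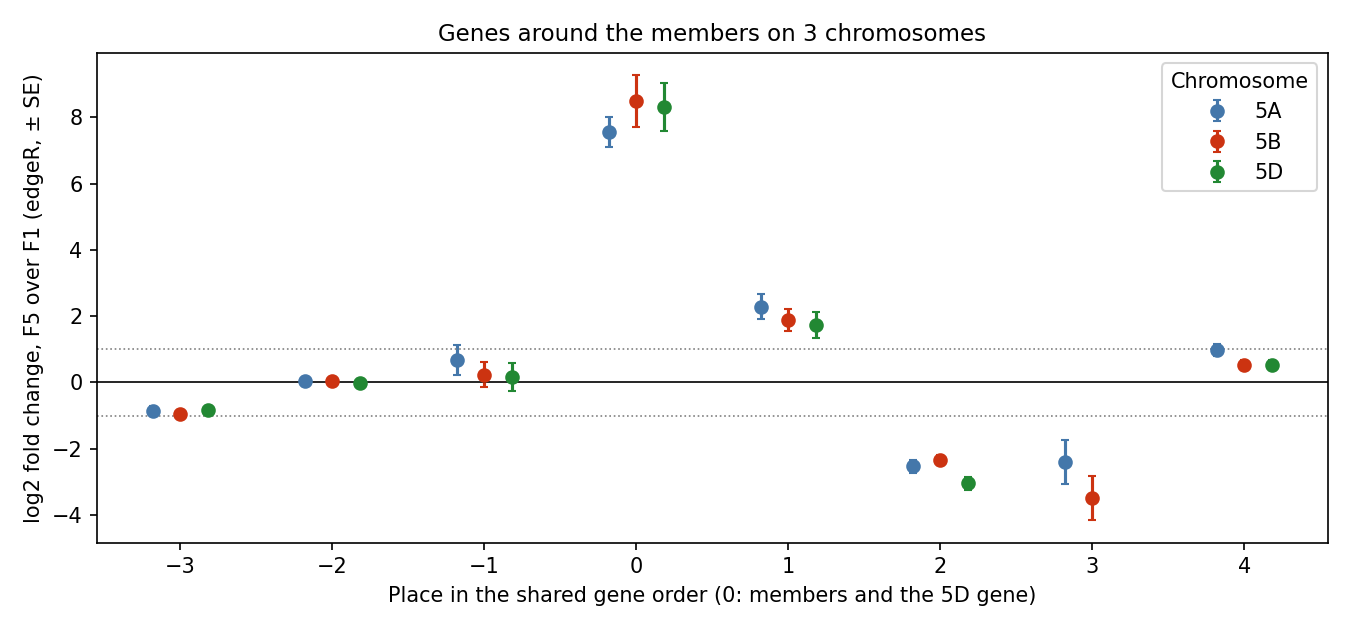
Log2 fold change of F5 over F1 (edgeR, error bars ± SE) for the 8 genes at matching places on 5A, 5B and 5D, with place 0 for the NAC genes and the 5D gene between the same neighbours; dotted lines mark 2-fold. Place 0 lies between 7.56 and 8.49 on all 3 chromosomes, while place -1, the gene with the same ontology text, lies between 0.17 and 0.68; the 5D gene at place 3 was not tested.

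Some other NAC genes were higher in F5 as well, by smaller folds and with other patterns across the organs. Names or descriptions mark 13 genes of the table as NAC, of which 11 are other than the 2 above, and all 11 were tested. Only 15.2% of the genes in the table carry a name or description, so any NAC gene without one is missed. The counts below hold for these 11 genes and not for the whole family. Against F1, 5 of the 11 were higher in F5 and the other 6 were not called, with a median log2 fold change of 0.94 beside -0.05 over all genes tested. Of all genes tested in that comparison 24.1% were called, 10.4% higher and 13.7% lower. None of the 11 NAC genes was called lower by edgeR, DESeq2 or limma (0 genes each), and 1 was lower at an unadjusted p under 0.05 by edgeR. The count depended on the setting: 3 were higher with limma on log2(FPKM + 1), 1 of 6 tested among genes with at least 5 FPKM, and 3 without F5 replicate 2.

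Of these 5, RNAC1 (TraesCS2D02G324700) was the most abundant. It measured 5.62, 6.12 and 5.13 FPKM in F1 and 14.6, 14.1 and 11.0 in F5 (log2 fold change 1.49, SE 0.16, edgeR adjusted p = 0.00133). It measured 2.92 and 4.08 FPKM in Lemma and 3.51 to 4.97 FPKM in Ovary, and was lowest in Anther, at 0.0765 to 0.162 FPKM. NAC domain-containing protein 18 (TraesCS7D02G263800) measured 6.19, 4.98 and 7.71 FPKM in F1 and 12.2, 13.0 and 8.23 in F5 (log2 fold change 1.09, SE 0.22, edgeR adjusted p = 0.0101). It dropped below 2-fold when F1 replicate 2 (0.96) or F5 replicate 2 (0.99) was left out, and on log2(FPKM + 1) in limma (0.73).

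The NAC genes TraesCS5B02G054200 and TraesCS5D02G059700, elsewhere on group 5 chromosomes, rose in F5 but had their highest level in Anther. TraesCS5B02G054200 went from 0.409 ± 0.249 FPKM in F1 to 1.78 ± 0.379 in F5 (log2 fold change 2.38, SE 0.48, edgeR adjusted p = 0.0105) and stood at 8.19 ± 1.65 in Anther. On log2(FPKM + 1) in limma its change from F1 was 0.99, just under 2-fold. TraesCS5D02G059700 measured 0.228 ± 0.0756 FPKM in F1 against 2.06 ± 0.455 in F5 (log2 fold change 3.42, SE 0.35, edgeR adjusted p = 0.00116) and stood at 10.9 ± 0.773 in Anther. Both were called lower in F5 than in Anther (edgeR adjusted p = 0.000527 and 0.00273). The remaining group 5 gene, the NAC domain-containing protein 2a-like TraesCS5B02G480900, was abundant in all groups, with 41.4 ± 30.9 FPKM in F1, 35.5 ± 15.6 in F5 and 147 ± 7.20 in Lemma (SD, n = 2), and did not pass between florets (log2 fold change 0.04, SE 0.57, edgeR adjusted p = 0.963).

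The fifth gene that rose, TraesCS3D02G078900, was scarce and had no counts in any Anther or Ovary library. It measured 0, 0.240 and 0.0426 FPKM in F1, 1.64, 2.01 and 0.398 in F5, and 1.16 and 0.839 in Lemma. Its floret call (log2 fold change 4.05, SE 1.25, edgeR adjusted p = 0.0438) was lost when F1 replicate 3 or any 1 F5 library was left out (edgeR adjusted p from 0.0539 to 0.119). Its log2 fold change was 6.19 without the F1 library that held most of the F1 counts. The NAC transcription factors 6A, 6B and 6D on 3A, 3B and 3D had their highest means in Lemma (44.8, 54.6 and 71.9 FPKM) and did not pass between florets (edgeR adjusted p from 0.236 to 0.709).

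Against the organs, the 4 comparisons share the F5 libraries and are given side by side. Against Lemma 3 of the 11 NAC genes were higher in F5 and 3 lower, beside 13.3% and 10.7% of all genes (23.9% called in all). Against Anther 3 were higher and 4 lower, beside 27.5% and 22.9% of all genes (50.4% in all). Against Ovary 9 were higher and the other 2 were not called, beside 23.6% of all genes called higher and 18.6% lower (42.3% in all), and the median log2 fold change of the 11 was 3.15. With F5 set against all other libraries at once, 10 of the 11 had at least 1 FPKM in every F5 library, and 2 of these 10 had a lowest F5 level above the highest level elsewhere, beside 12.7% of all genes at that level.

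**Figure D3:**
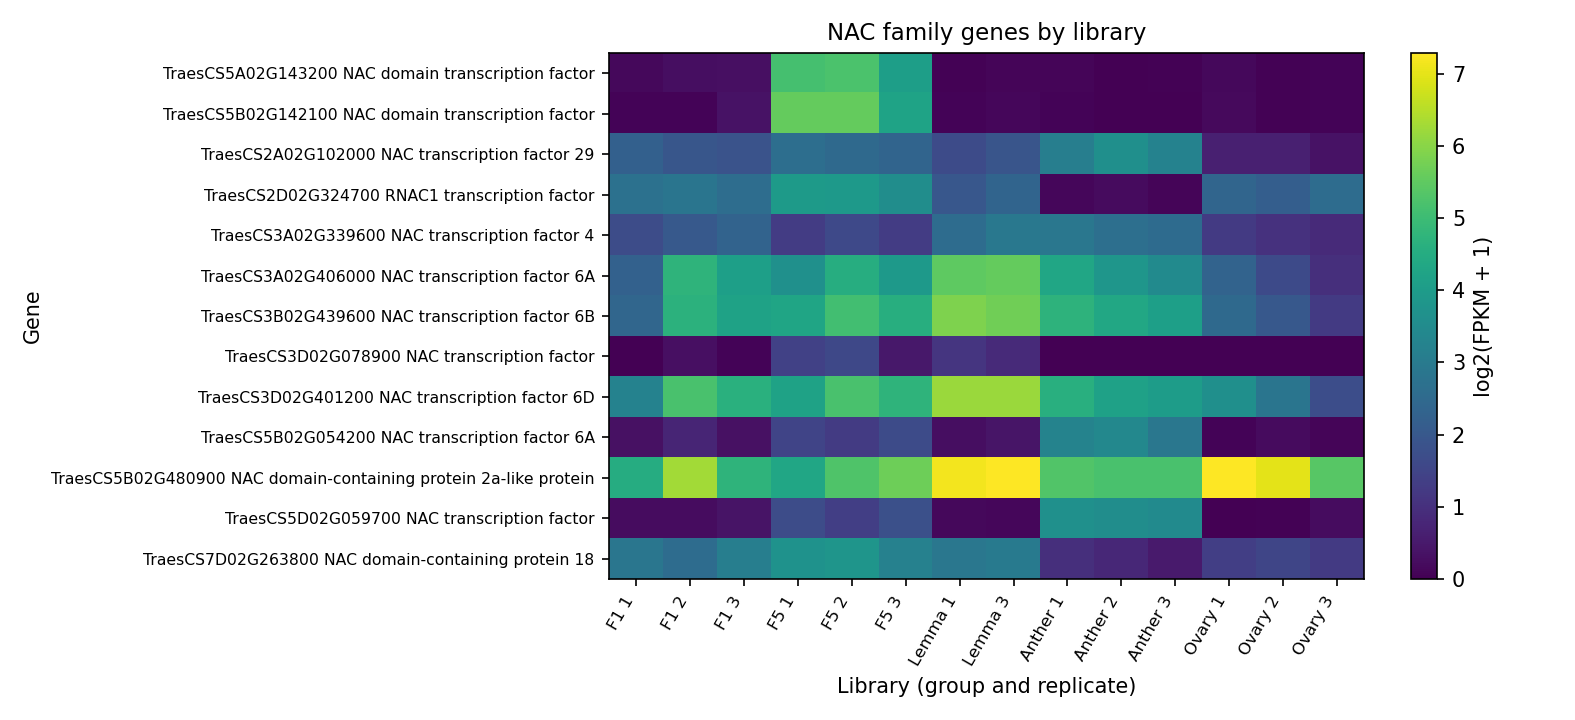
Log2(FPKM + 1) of the 13 genes named or described as NAC (rows) in the 14 libraries (columns, group and replicate). The first 2 rows, the 5A and 5B genes, are bright in the 3 F5 columns alone, whereas RNAC1 is dark in Anther alone and the genes 6A on 3A, 6B on 3B and 6D are brightest in Lemma.

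Few genes of the table set F5 apart as widely. Since the 2 NAC genes were chosen for these same levels, a high rank was fixed in advance and is description only. Among 40588 genes with at least 1 FPKM in every F5 library, the lowest F5 level was divided by the highest level in the other 11 libraries, after adding 0.1 FPKM to each. The ratio was above 1 for 5136 genes and at least 10 for 93. The 5A gene ranked 6 with a ratio of 49.1, the 5B gene ranked 7 with 48.0, and the 5D gene ranked 21 with 25.8. With 1 FPKM added in place of 0.1, 12 genes stood at or above the lower of the 2 NAC genes. The only described gene above them was that for jacalin-related lectin 1 (TraesCS5A02G506900), of a carbohydrate-binding protein family, with a lowest F5 level of 6.23 and a highest other level of 0.0219 FPKM. The next described genes below were salt stress protein 1 (TraesCS3D02G153700, ratio 32.1), a xyloglucan endotransglucosylase/hydrolase (TraesCS3D02G093900, 28.7), a dirigent protein (TraesCS3D02G080700, 19.9) and alpha-2-purothionin (TraesCS1D02G405700, 19.2), of an antimicrobial peptide family.

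**Figure D4:**
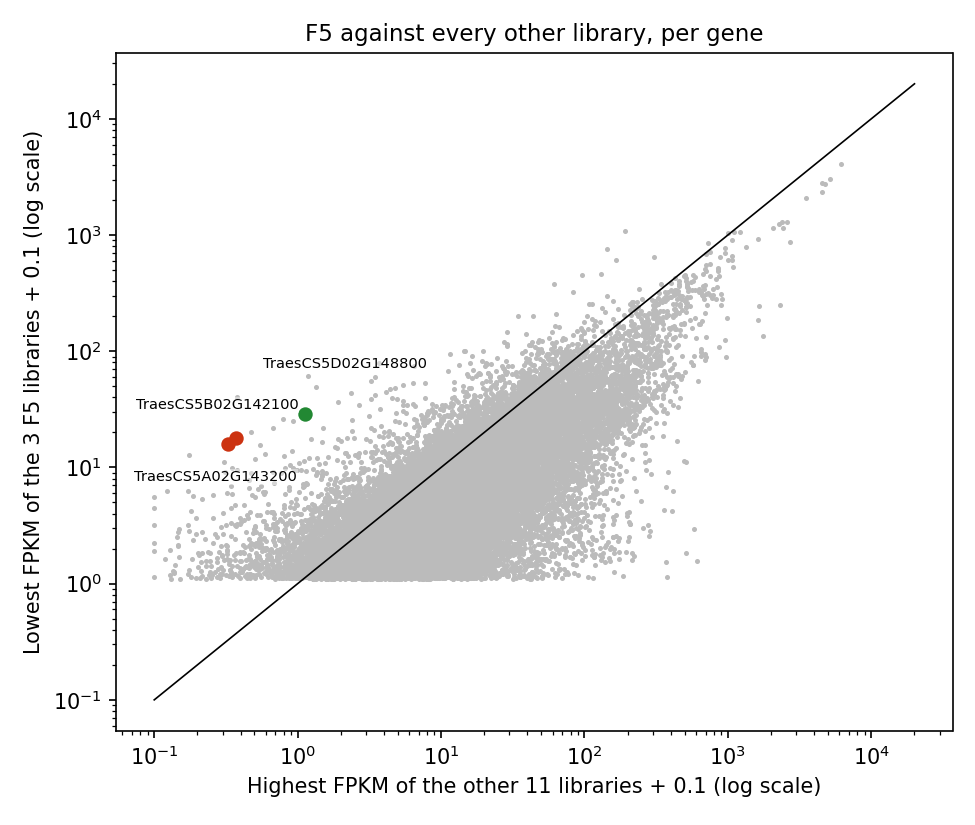
Lowest FPKM of the 3 F5 libraries against the highest FPKM of the other 11 libraries, each plus 0.1, on log axes, for the 40588 genes with at least 1 FPKM in every F5 library; the line marks equal values. The 5A and 5B genes (red) and the 5D gene (green) lie far above the line, with ratios of 49.1, 48.0 and 25.8.

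The genes most alike in pattern were found by Pearson's r of log2(FPKM + 1) with the mean of the 2 NAC genes over the 14 libraries, among 35326 genes with a group mean of at least 5 FPKM. The 2 NAC genes correlated with each other at 0.9994. The libraries fall into F5 and the rest, so a high r says mainly that a gene was high in F5 and low elsewhere, and 138 genes had r of at least 0.95. The most similar gene was TraesCS2D02G199200 (r = 0.997), without a description but with ontology terms for sequence-specific DNA binding and regulation of transcription. It measured 34.7, 40.8 and 19.9 FPKM in F5 and at most 0.373 FPKM elsewhere, so F5 replicate 3 was its low F5 library too. TraesCS5D02G148800, the 5D gene described above, came next (r = 0.994).

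The 10 described genes most alike differed in how low they were outside F5. The xyloglucan endotransglucosylase/hydrolases TraesCS3D02G093900 and TraesCS3B02G108700, which cut and rejoin wall xyloglucan, measured 15.5 to 17.5 and 5.93 to 8.38 FPKM in F5. The dirigent protein gene TraesCS3D02G080700, of a family that steers the coupling of phenolic alcohols, measured 6.76 to 9.93 FPKM, and the peroxidase gene TraesCS1D02G096400 5.78 to 16.1 FPKM. The fatty acyl-CoA reductase gene TraesCS4A02G388600, of a family that makes wax alcohols, measured 6.06 to 13.6 FPKM, and TraesCS4D02G000600, of the terpene cyclase family, 7.27 to 13.2 FPKM. All 6 were at or below 0.585 FPKM in every library outside F5.

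The other 4 of the 10 were the jacalin-related lectin gene and 3 genes with measurable levels in every library. The carboxypeptidase gene TraesCS6A02G036100, for an enzyme that trims proteins from their carboxyl end, ranged from 46.9 to 121 FPKM in F5 and from 5.70 to 12.2 FPKM elsewhere. The acyl-coenzyme A oxidase gene TraesCS7B02G190300, for the opening step of fatty acid breakdown in peroxisomes, ranged from 6.86 to 9.49 FPKM in F5 and from 3.42 to 4.44 elsewhere. The cytokinin riboside 5'-monophosphate phosphoribohydrolase gene TraesCS1B02G173200, whose product releases active cytokinin, ranged from 4.69 to 6.23 FPKM in F5 and from 0.454 to 0.893 elsewhere. The choice of genes rests on the scale, since 5 of the 10 stayed among the 10 most alike on log2(FPKM + 0.1) and 0 by Spearman's rho, which weighs the order among the near-zero libraries.

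**Figure D5:**
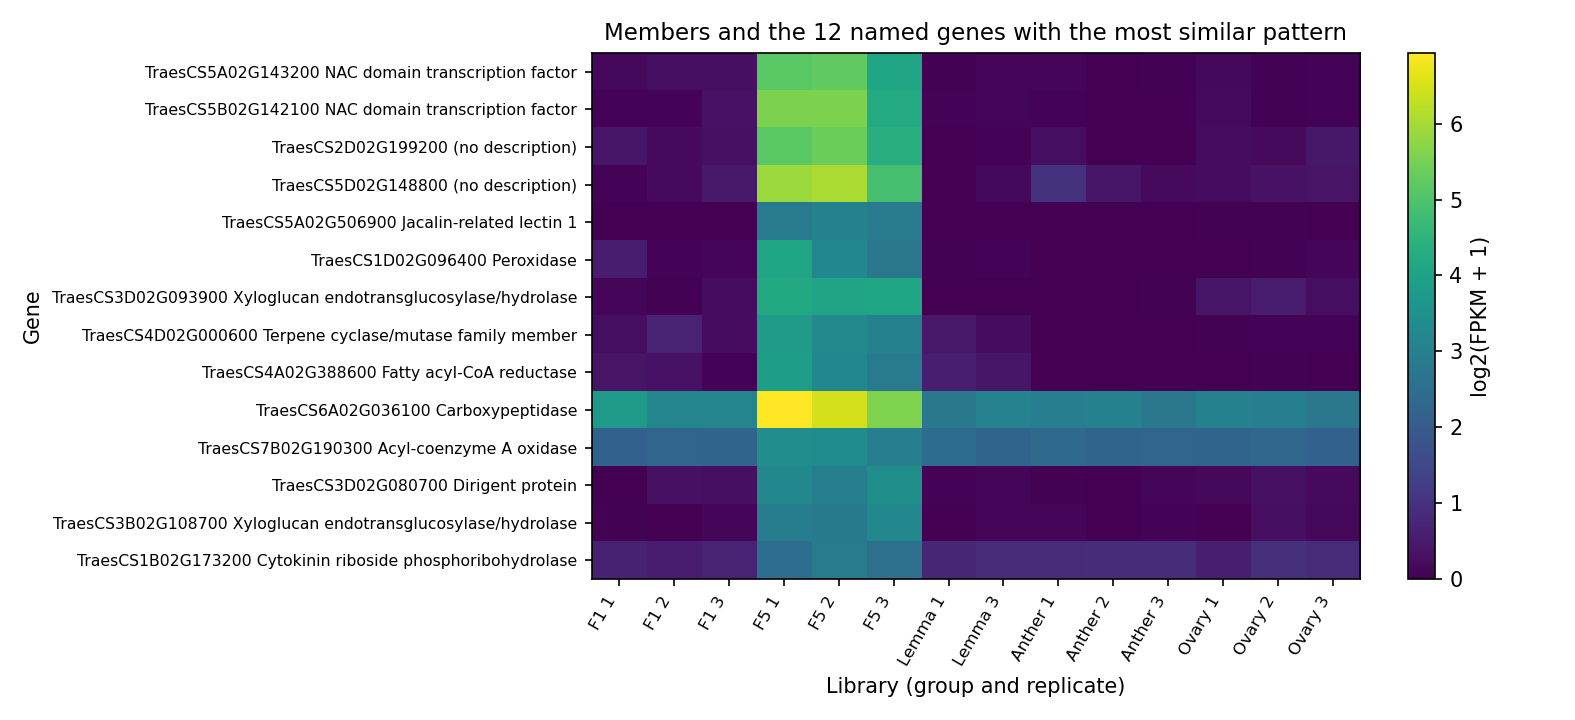
Log2(FPKM + 1) in the 14 libraries (columns, group and replicate) of the 5A and 5B NAC genes and of the 12 named genes with the most similar pattern (rows). All rows are brightest in the 3 F5 columns, and the carboxypeptidase and acyl-coenzyme A oxidase genes keep levels of at least 5.70 and 3.42 FPKM elsewhere.

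Gene groups tied by textbook knowledge to NAC factors, and other transcription factor families, were counted in F5 against F1 beside the 10.4% of all genes called higher and 13.7% called lower. Of 249 tested genes with the ontology text of the 2 NAC genes, a list added after the annotation was seen, 53 were higher and 14 lower (median log2 fold change 0.34). Only the 2 NAC genes were left out of that list. Other genes named above with this text, such as the 5D gene, could thus be counted in it. MYB genes had 9 of 33 higher and 3 lower (median 0.59), with R2R3-MYB protein TraesCS1D02G268900 rising from 1.65 ± 0.217 to 5.20 ± 0.432 FPKM and TraesCS5D02G093100 falling from 6.91 ± 0.436 to 2.75 ± 0.869. MADS-box genes, many of which set floral organ identity, rose in 3 of 27 cases (1 without F1 replicate 3) and fell in 12 (median -1.47). Among them WM4 (TraesCS4D02G245200) rose from 4.47 ± 0.740 to 49.2 ± 0.836 FPKM and WM27A (TraesCS1B02G273300) fell from 5.44 ± 0.835 to 0.0930 ± 0.0579. WRKY genes were higher in 1 of 16 cases (2 without F1 replicate 1). None of 18 AP2 or ERF, 2 homeobox, 1 bHLH or 1 bZIP genes was called by edgeR (0 at an unadjusted p under 0.05), nor by DESeq2, but edgeR called 1 homeobox gene lower without F5 replicate 3, as limma did (1 gene) on log2(FPKM + 0.1). When limma was run on log2(FPKM + 1), the same-ontology list gave 24 higher and 6 lower, MYB 2 and 3, MADS-box 1 and 14, and WRKY no call (0 genes).

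Chlorophyll breakdown genes, known by ontology alone, were higher in 9 of 14 cases and the rest were not called (median 1.36). The chlorophyllase gene TraesCS6B02G174300 measured 0.320 ± 0.342 FPKM in F1 against 10.3 ± 7.56 in F5 (log2 fold change 5.23, SE 0.99, edgeR adjusted p = 0.00874). The list gave 5 higher with limma on log2(FPKM + 1), and between 6 and 11 when 1 library was left out (6 without F5 replicate 2). Senescence genes were higher in 7 of 27 cases (median 0.14), among them the senescence-associated protein gene TraesCS7D02G531600, from 1.73 ± 1.30 to 12.9 ± 0.847 FPKM. The summed level of the green tissue markers also differed, at 16789 to 39383 FPKM in F1 and 42578 to 47544 FPKM in F5, and its part in these counts was not tested.

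The secondary wall list had 57 of 123 genes higher and 12 lower (median 1.22), and 37 were higher and 6 lower with limma on log2(FPKM + 1). Dropping a single library gave from 39 to 68 higher and from 10 to 15 lower. This list was matched as text, so genes that act in other walls may be counted in it. The laccase gene TraesCS1B02G292600, whose product polymerises lignin precursors, had a log2 fold change of 6.64 (SE 0.86, edgeR adjusted p = 0.00249), and TraesCS2B02G444200, annotated with cinnamyl-alcohol dehydrogenase activity, one of -4.03 (SE 0.33, edgeR adjusted p = 0.000608). The remaining lists, for cell death, proteases, autophagy and abscisic acid, lay near or below the shares of all genes (10.4% higher, 13.7% lower). In that order 7.89%, 12.5%, 8.47% and 9.94% of their genes were higher, and 13.2%, 6.25%, 0% and 9.36% lower. The genes named from them are examples only. Cell death genes had 3 of 38 higher and 5 lower (8 without F1 replicate 1), with TraesCS6B02G192200, annotated with fumarylacetoacetase activity, rising from 21.2 ± 3.93 to 48.9 ± 4.22 FPKM. Cysteine protease genes were higher in 2 of 16 and lower in 1 (3 and 2 without F1 replicate 1), with TraesCS4B02G062500 rising from 19.3 ± 4.40 to 42.3 ± 12.4 FPKM. The autophagosome assembly gene TraesCS6D02G221200 rose from 3.77 ± 0.558 to 8.38 ± 1.71 FPKM. Autophagy genes were higher in 5 of 59 cases, a count that was 2 without F1 replicate 2, F1 replicate 3 or F5 replicate 1, 3 without F5 replicate 2, 8 without F5 replicate 3 and 0 when limma was run on log2(FPKM + 1). Abscisic acid genes were higher in 17 of 171 and lower in 16 (median 0.00), with TraesCS4D02G092000, annotated with abscisic acid transport, rising from 1.15 ± 0.414 to 5.06 ± 1.31 FPKM and Dehydrin WZY2 (TraesCS6A02G350700), of a family that protects cells from drying, falling from 19.8 ± 5.20 to 2.61 ± 1.68 FPKM. On log2(FPKM + 1) limma called 1 cell death gene higher and 4 lower, 1 cysteine protease gene higher and 2 lower, and 9 abscisic acid genes higher and 8 lower.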

How the data were processed

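Per the labels' protocols, Trizol was used for RNA extraction and only RNA with an integrity number over 7.0 went into libraries. The authors deposited 1 table with raw counts and FPKM per gene for each of the 14 libraries. The submitters' processing notes name Bowtie 0.12.2 and mm8, a mouse build that cannot hold wheat genes, so the true aligner, build and annotation remain not given in the sources used here. None of the table's wheat gene IDs matched the RefSeq gene table at hand (0 genes), and no sequence was used.

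Members and gene lists were chosen with earlier results of these data known. Counts were scaled by TMM, filtered with filterByExpr and fitted with robust quasi-likelihood models in edgeR 4.0.16 (R 4.3.3): F5 and F1 by themselves, and F5 against each organ in 1 fit of all 5 groups. Tests were two-sided, and p-values were adjusted over all genes tested. A gene was called at an adjusted p under 0.05 and at least 2-fold. SE is the log2 fold change divided by the square root of F. Lists were matched as text to names and descriptions (15248 genes, 15.2%), or else to ontology terms; after the annotation text was seen, protease inhibitors were removed from the protease list and a strictosidine synthase term was added to the anther list. FPKM values are those deposited, with means and SDs computed here. They were not scaled by TMM, so ratios of FPKM and limma changes are on another scale than edgeR fold changes.

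Named genes were the 2 members, the 10 described and 2 undescribed genes most alike, called NAC genes with at least 5 FPKM and no overlap, NAC genes on group 5 chromosomes, 1 gene a direction from each list, called neighbours within 5 places and described genes next to the members in the F5 ratio. TraesCS3D02G078900, TraesCS5D02G148800, the other genes beside it and the genes 6A, 6B and 6D were named after their values were seen. Alternatives were DESeq2 1.42.0, limma 3.58.1, other scaling, filters, a replicate block and leaving out libraries. The models were also run on simulated counts, with few changed genes, balanced in direction, and the same spread for all genes. These settings differ from the data, so nothing is read from that run. Replicate libraries of a group differed by more than counting noise (chi-square per degree of freedom from 16.2 to 112), so none was treated as a repeat of another. Counting error is small beside this spread for abundant genes.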

Additional observations from a re-analysis of the deposited data

How the results depend on the processing

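The F5 means of both NAC genes moved by less than 1 SD under TMM rescaling and ranged from 31.9 to 46.2 FPKM (5B) and from 25.2 to 35.5 FPKM (5A) when 1 F5 library was left out, and the 5B share of counts ranged from 54.4% to 56.7%. Against F1, the count of 5 called NAC genes became 1 among genes with at least 5 FPKM, where 6 of the 11 could be tested, 3 with limma on log2(FPKM + 1), and 3 to 6 when 1 library was left out. The 156 genes called in the lists became 76 with the 5 FPKM filter, 95 with limma on log2(FPKM + 1), and 120 to 193 without 1 library. The 8 called neighbours became 5 with the 5 FPKM filter, where 8 of 18 could be tested. The 7 genes at or above the lower NAC gene in the F5 ratio became 12 with 1 FPKM added, and the 10 most alike shared 5 genes with those on log2(FPKM + 0.1) and 0 with those by Spearman's rho. The direction of TraesCS5B02G480900 (0.04) turned with the 5 FPKM filter (-0.11) and with limma (-0.09 at either pseudocount), and ranged from -0.30 to 0.87 without 1 library; TraesCS3A02G406000 (0.33) ranged from -0.10 to 0.96. The limma settings also differ in scale, as they used FPKM without TMM scaling. Apart from the restricted filters, which test fewer genes, the cause was not tested. No pairing of the F1 and F5 samples by replicate number was seen (correlations of deviations -0.018, 0.087 and -0.198, and not every sample correlated best with its own number). With so few libraries, pairing could still have been missed. With the replicate number as a block, 4 NAC genes were called against F1, 5 against Lemma, 7 against Anther and 9 against Ovary, with 138 list genes and 8 neighbours; TraesCS3D02G078900 then had an edgeR adjusted p = 0.0506. The low counts outside F5 limit any order among F1 and the organs.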
